A study of Homo sapiens with 12 samples.

Results

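A set of 5 genes of plasminogen activation and blood coagulation were examined in HCT116 KAP1-dTAG cells: PLAU, PLAT, PLAUR, F3 and THBS1. They were taken from the count table by matching their symbols to the Ensembl identifiers of its first column, which gave 5 of the 19901 protein-coding genes listed. All 5 passed the count filter (a minimum of 10 counts in 6 or more of the 12 libraries), as did 13093 genes in all, and the lowest count of any of the 5 in any library was 269 (PLAU). HCT116 is a human colorectal carcinoma line. In the clone D5 used here, a single clone, KAP1 (the protein of TRIM28) carries a tag through which the small molecule dTAG sends it for degradation. Every group carried the tagged KAP1 and was starved of serum for 48 h, and dTAG, or DMSO alone as the vehicle, was added 8 h before the end of that time. Serum was then given for 30 min or not at all. The 4 groups of 3 libraries are named DMSO-S0 (DMSO, no serum), DMSO-S30 (DMSO, serum), dTAG-S0 (dTAG, no serum) and dTAG-S30 (dTAG, serum). The study describes 3 biological replicates per condition. The labels number the replicates without saying that they were separate cultures, so p-values measure the spread between these libraries.

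Plasminogen is a circulating precursor that is cut to plasmin, a protease that dissolves fibrin and degrades extracellular matrix. Urokinase (PLAU) and tissue-type plasminogen activator (PLAT) make that cut, and the urokinase receptor (PLAUR) holds urokinase at the cell surface. Tissue factor (F3) is the membrane cofactor of factor VIIa and starts the clotting cascade, whereas thrombospondin-1 (THBS1) is a secreted matricellular glycoprotein, first found in platelets, that binds cell surface receptors and activates latent TGF-beta. Several of these genes are known serum or growth factor responsive genes, and in epithelial tumours the urokinase system and tissue factor are studied for their part in invasion.

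Libraries held 20537682 to 26278707 counts, of which 7.97% to 9.37% were ERCC spike-ins (synthetic transcripts added to each sample). No 2 replicates held the same values, and counts of replicates differed by 3.02 to 9.80 times the sampling noise (chi-square per degree of freedom). Of 9 colorectal epithelial markers 7 passed the count filter, with EPCAM at 252 to 284 CPM and CDX2 at 11.5 to 16.8 CPM, while VIL1 stayed at or below 0.337 CPM and CDX1 at or below 0.0528 CPM. TRIM28, whose transcript does not report on loss of the tagged protein, differed by -0.06 (log2) between dTAG and DMSO without serum and by -0.04 with serum (edgeR adjusted p = 0.801 and 0.889).

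The stretch of 250 bases before the RefSeq start of a gene is shown for F3 and THBS1, since these genes were called in opposite directions after dTAG in serum-stimulated cells. Sequences are from RefSeq (GRCh38.p14), run 5′ to 3′ on the strand of the gene, and position -1 is the base before the first transcribed base. Capitals mark matches on either strand to short motifs. The AP-1 motif was TGANTCA, which Fos and Jun proteins bind. The EGR motif was GCGNGGGCG, for the early growth response proteins. The SP1 motif was GGGCGG, a common box of promoters rich in C and G. The TEAD motif was GGAATG, for the partners of YAP, and the TATA box was read as TATAAA.
F3, chr1:94541760-94542009, minus strand: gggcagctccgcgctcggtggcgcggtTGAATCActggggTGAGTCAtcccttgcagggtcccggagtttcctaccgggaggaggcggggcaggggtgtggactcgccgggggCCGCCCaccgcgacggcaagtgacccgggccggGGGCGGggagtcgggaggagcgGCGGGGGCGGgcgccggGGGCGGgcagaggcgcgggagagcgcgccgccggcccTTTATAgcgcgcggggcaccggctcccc
THBS1, chr15:39580829-39581078, plus strand: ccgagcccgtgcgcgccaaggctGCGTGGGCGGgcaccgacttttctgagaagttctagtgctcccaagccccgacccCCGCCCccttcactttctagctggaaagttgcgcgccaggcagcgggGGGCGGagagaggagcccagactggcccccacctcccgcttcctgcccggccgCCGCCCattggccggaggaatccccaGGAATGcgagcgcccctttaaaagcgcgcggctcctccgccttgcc
In F3 the capitals hold a pair of AP-1 matches (-223 to -217 and -210 to -204), 1 EGR match (-82 to -74), 4 SP1 matches and, read on the other strand, 1 TATA match (-28 to -23). In THBS1 they hold 1 EGR match (-227 to -219), 4 SP1 matches and 1 TEAD match (-46 to -41), with no AP-1 match. The EGR match shares bases with an SP1 match in both genes. Of the 250 F3 bases, 73 lie in an exon of the lncRNA ENSG00000288736 in GENCODE v44.

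For PLAUR, 30-base stretches around its single AP-1 match (-186 to -180) and its single EGR match (-90 to -82, read on the other strand) are shown for comparison with those of F3 and THBS1.
PLAUR AP-1 match, chr19:43670337-43670366, minus strand: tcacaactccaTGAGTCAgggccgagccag
PLAUR EGR match, chr19:43670240-43670269, minus strand: gagggggaggCGCCCACGCatctggggctg
RefSeq gave PLAU a pair of starts, and the 250 bases before them held 0 and 3 matches, all of the SP1 kind. Among all 35116 windows of the same length, 6.57% held an AP-1 match, 8.41% an EGR match, 42.6% an SP1 match, 11.9% a TEAD match and 10.7% a TATA match. The cyclic AMP response element (TGACGTCA, in 1.65% of windows), the serum response element (1.16%) and the NF-kappaB site (9.96%) were also searched, and none of the windows of PLAU, PLAUR, F3 and THBS1 held a match. All 250 bases of the PLAUR window lie in annotated exons of PLAUR in GENCODE v44, and all 250 bases of each PLAU window in exons of PLAU or C10orf55, so these windows are not purely upstream sequence. The THBS1 window held 0 exonic bases. A match is a description of the letters and not a measured binding site.

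Serum raised all 5 genes in DMSO-treated cells and again in dTAG-treated cells, over a wide range, from 1.27-fold for PLAT to 23.4-fold for THBS1 in DMSO-treated cells. With dTAG and no serum, PLAU, PLAT and PLAUR were higher by 1.37-fold to 1.48-fold. With dTAG and serum, PLAT was higher by 1.61-fold and F3 by 1.29-fold, whereas THBS1 was at 0.728 times its DMSO level. The values are given below gene by gene, as CPM (counts scaled to a common library size), and then by comparison. RNA was measured in bulk, so a lower share of cells that make a transcript and less of it per cell cannot be told apart.

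PLAU (ENSG00000122861.15, hg38 chromosome 10, 73909177 to 73917497, plus strand) encodes urokinase. In replicates 1 to 3 it was at 15.5, 12.3 and 13.6 CPM in DMSO-S0 and at 70.3, 60.0 and 72.4 CPM in DMSO-S30. In dTAG-S0 it was at 21.1, 16.9 and 19.7 CPM, and in dTAG-S30 at 74.3, 68.2 and 82.0 CPM. The 6 libraries with serum thus lay far above the 6 without, all 3 dTAG-S0 libraries lay above all 3 DMSO-S0 libraries, and the serum-treated libraries of both treatments overlapped. Group means rose in the order DMSO-S0 (13.8 ± 1.63 CPM, SD, n = 3), dTAG-S0 (19.2 ± 2.15), DMSO-S30 (67.5 ± 6.66) and dTAG-S30 (74.8 ± 6.91), and the last pair did not differ beyond its spread. The lncRNA C10orf55 on the other strand covers 90.5% of the gene, and whether reads were assigned by strand is not given in the sources used here. C10orf55 itself was at 0.137 to 1.78 CPM and rose with serum too (log2 fold change 2.38 in DMSO-treated cells, edgeR adjusted p = 0.000581), and its part in the PLAU values was not tested.

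PLAT (ENSG00000104368.17, hg38 chromosome 8, 42175233 to 42207724, minus strand) encodes the tissue-type activator. It was at 24.0, 23.8 and 21.8 CPM in DMSO-S0 and at 29.5, 28.3 and 29.4 CPM in DMSO-S30. After dTAG it was at 33.0, 26.9 and 34.4 CPM without serum and at 45.4, 45.6 and 51.0 CPM with serum. All dTAG-S30 libraries lay above every other library, all DMSO-S0 libraries lay below every other library, and DMSO-S30 and dTAG-S0 overlapped. The means were 23.2 ± 1.22 CPM (SD, n = 3) in DMSO-S0, 29.1 ± 0.684 in DMSO-S30, 31.5 ± 3.97 in dTAG-S0 and 47.3 ± 3.16 in dTAG-S30.

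PLAUR (ENSG00000011422.11, hg38 chromosome 19, 43646095 to 43670547, minus strand) encodes the urokinase receptor. Its levels were 16.4, 15.2 and 16.7 CPM in DMSO-S0 and 60.2, 58.2 and 75.7 CPM in DMSO-S30. With dTAG they were 23.4, 23.6 and 24.0 CPM without serum and 81.7, 65.8 and 92.9 CPM with serum. The dTAG-S0 libraries were tightly grouped and all above the DMSO-S0 libraries, while DMSO-S30 replicate 3 lay above dTAG-S30 replicate 2, so that the serum-treated groups overlapped. The order of the means was that of PLAU: 16.1 ± 0.821 CPM (SD, n = 3) in DMSO-S0, 23.7 ± 0.346 in dTAG-S0, 64.7 ± 9.62 in DMSO-S30 and 80.2 ± 13.6 in dTAG-S30.

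F3 (ENSG00000117525.13, hg38 chromosome 1, 94529225 to 94541800, minus strand) encodes tissue factor. It was at 26.2, 25.4 and 20.6 CPM in DMSO-S0 and at 49.6, 45.3 and 48.1 CPM in DMSO-S30. In dTAG-S0 it was at 28.0, 27.8 and 30.3 CPM, and in dTAG-S30 at 65.2, 58.7 and 62.0 CPM. No library of any group overlapped those of another group, although the lowest dTAG-S0 library exceeded the highest DMSO-S0 library by little. The means were 24.1 ± 3.03 CPM (SD, n = 3), 28.7 ± 1.39, 47.7 ± 2.21 and 61.9 ± 3.24 in DMSO-S0, dTAG-S0, DMSO-S30 and dTAG-S30.

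THBS1 (ENSG00000137801.10, hg38 chromosome 15, 39581079 to 39599466, plus strand) encodes thrombospondin-1. It was at 43.5, 40.1 and 37.1 CPM in DMSO-S0 and at 900.0, 865 and 1029 CPM in DMSO-S30. With dTAG it was at 37.1, 29.3 and 38.0 CPM without serum and at 719, 638 and 698 CPM with serum. Without serum the libraries of both treatments overlapped, whereas with serum every dTAG library lay below every DMSO library. This was the reverse of the order seen for PLAT and F3 in the same libraries. The share of all tested genes with every dTAG library below every DMSO library was not counted. The means were 40.2 ± 3.21 CPM (SD, n = 3) in DMSO-S0, 34.8 ± 4.76 in dTAG-S0, 685 ± 42.4 in dTAG-S30 and 931 ± 86.7 in DMSO-S30. FSIP1 on the other strand covers 60.4% of the gene, was at 5.16 to 7.29 CPM and was called in none of the comparisons.

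**Figure D1:**
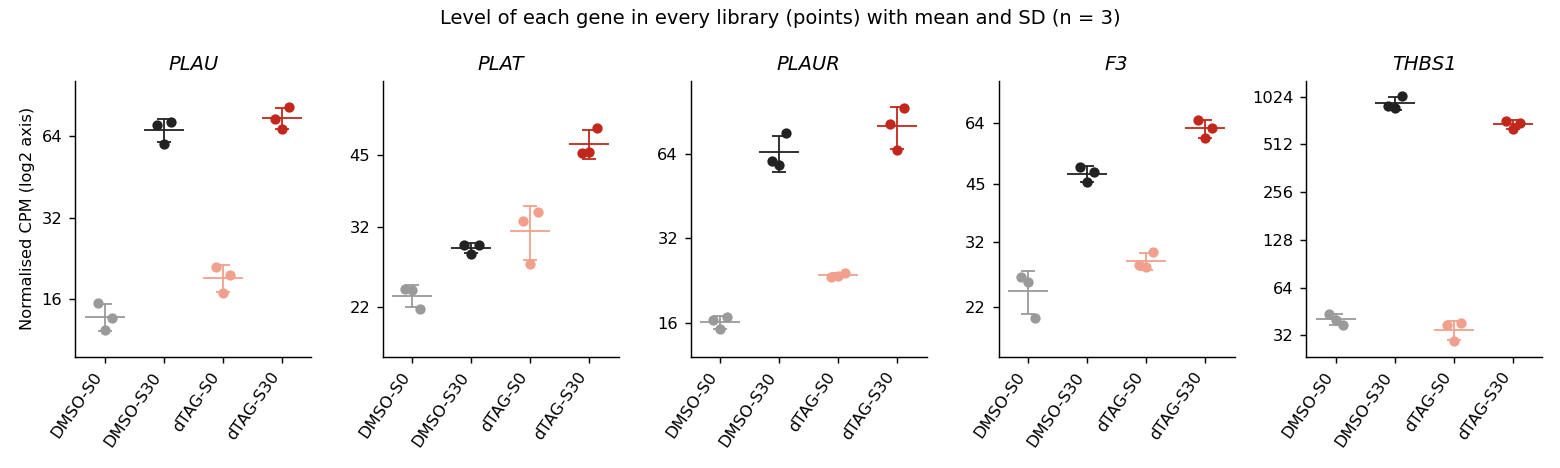
Normalised CPM (log2 axis, scaled separately for each gene) of PLAU, PLAT, PLAUR, F3 and THBS1 in the 4 groups, with 1 point per library and lines at the group mean ± SD (n = 3). The THBS1 points rise from 29.3 to 43.5 CPM without serum to 638 to 1029 CPM with serum, and the dTAG-S30 points of PLAT (45.4 to 51.0 CPM) lie above all its other points.

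Levels of different genes are set side by side here per kb of the counted span, introns included. The order is thus one of counts per span, which depends on intron length, and not of mature transcripts. In DMSO-S0 the highest per-length level was that of THBS1 (2.19 CPM per kb), followed by F3 (1.92), PLAU (1.66), PLAT (0.713) and PLAUR (0.658). In DMSO-S30 the order of levels was THBS1 (50.7 CPM per kb), PLAU (8.12), F3 (3.79), PLAUR (2.65) and PLAT (0.894). In DMSO-treated cells PLAT therefore fell behind PLAUR with serum, and PLAU passed F3. In dTAG-S0 the order was PLAU (2.31 CPM per kb), F3 (2.28), THBS1 (1.89), PLAT (0.968) and PLAUR (0.967). PLAU and F3 were nearly level there, as were PLAT and PLAUR. In dTAG-S30 the levels followed the order of DMSO-S30: 37.3 CPM per kb for THBS1, 8.99 for PLAU, 4.93 for F3, 3.28 for PLAUR and 1.46 for PLAT.

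The response to serum was compared in DMSO-treated cells first, where KAP1 was present. All 5 genes were higher in DMSO-S30 than in DMSO-S0 by the edgeR quasi-likelihood test at an adjusted p under 0.05, where 9.23% of all tested genes were called higher and 16.8% lower. THBS1 rose by 4.55 on the log2 scale (23.4-fold, adjusted p = 1.22e-23), and stood in place 14 of the 13093 genes when ordered by p. PLAU rose by 2.31 (4.97-fold, adjusted p = 2.65e-16) and PLAUR by 2.03 (4.08-fold, adjusted p = 3.98e-14). F3 rose by 1.0 (95% interval 0.83 to 1.17, adjusted p = 3.23e-10), which puts it on the 2-fold limit by which the study defined its immediate early genes (IEGs). PLAT had the smallest rise, 0.34 (95% interval 0.16 to 0.53, adjusted p = 0.00586). This call was lost without DMSO-S0 replicate 3 (0.28, adjusted p = 0.0763), and over its other alternatives the adjusted p ran from 0.000387 to 0.0271. The median log2 fold change of the 5 genes was 2.03, against -0.07 over all tested genes.

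The same comparison in dTAG-treated cells, dTAG-S30 against dTAG-S0, also placed all 5 genes higher, where 9.07% of all tested genes were called higher and 15.5% lower. The rise was 4.29 (log2) for THBS1, 1.95 for PLAU, 1.75 for PLAUR, 1.10 for F3 and 0.58 for PLAT, with edgeR adjusted p from 2.11e-23 to 5.03e-06. For these 5 genes the median was 1.75, against -0.06 over all tested genes. In each gene and in both treatments all 3 libraries with serum lay above all 3 without. How many of all tested genes did so was not counted. THBS1, PLAU and PLAUR had a smaller rise in dTAG-treated than in DMSO-treated cells, and F3 and PLAT a larger one.

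Whether these rises differed was tested by the interaction of serum and dTAG. None of the 5 genes was called (edgeR adjusted p = 1.0 for each), and neither was any of them by DESeq2 or the likelihood ratio test, against 5 of all 13093 genes (0.0382%) called by edgeR. At an unadjusted p under 0.05 the interaction held 2 of the 5 genes and 405 of all genes. The difference in log2 rise, dTAG minus DMSO, was -0.36 for PLAU (95% interval -0.66 to -0.07, unadjusted p = 0.0181) and -0.26 for THBS1 (-0.52 to -0.00098, unadjusted p = 0.0492). For PLAUR it was -0.28 (-0.60 to 0.04), for PLAT 0.24 (-0.02 to 0.49) and for F3 0.10 (-0.14 to 0.34). No difference between the treatments was thus shown for any of the 5 genes after adjustment. The intervals are not adjusted for the number of genes. They lay on the negative side for PLAU and THBS1 and held both signs for PLAUR, PLAT and F3. They reached -0.66 for PLAU, -0.60 for PLAUR and 0.49 for PLAT, so differences of that size were not excluded.

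**Figure D2:**
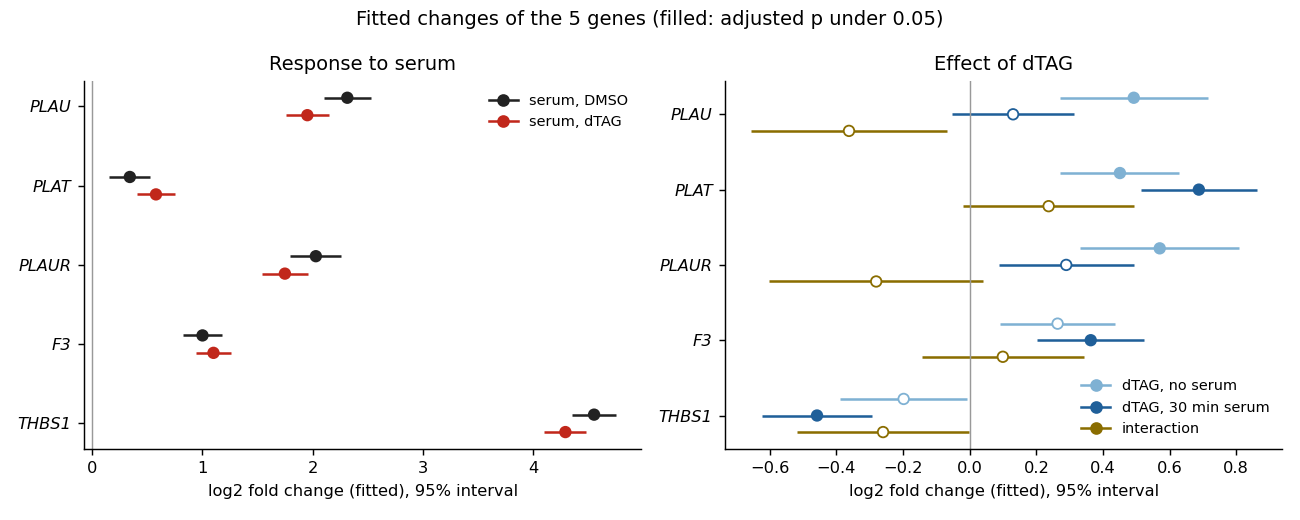
Fitted log2 fold changes of the 5 genes with 95% intervals, for serum in each treatment (left) and for dTAG at each serum level and the interaction (right), with filled points where the edgeR adjusted p is under 0.05. The 5 genes lie between 0.34 and 4.55 for serum, and THBS1 (-0.46) and PLAT (0.69) lie on opposite sides of 0 for dTAG with serum.

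KAP1 depletion in starved cells was read from dTAG-S0 against DMSO-S0. None of these libraries came from untagged cells given dTAG. An effect of the compound itself thus cannot be told apart from loss of KAP1, here and with serum. PLAU, PLAT and PLAUR, which among these 5 genes belong to the plasminogen activation system, were called higher (3 of 5, where 0.878% of all tested genes were called higher), and 0 were called lower. None of the 5 tested inhibitors reported here and 11 tested receptors or cofactors of that system was called in this comparison. Only 171 of all 13093 tested genes were called in either direction, so the lack of a call among so few genes says little. PLAUR was higher by 0.57 on the log2 scale (95% interval 0.33 to 0.81, edgeR adjusted p = 0.00775), PLAU by 0.49 (0.27 to 0.71, adjusted p = 0.0141) and PLAT by 0.45 (0.27 to 0.63, adjusted p = 0.00473). F3 had a log2 fold change of 0.26 (0.09 to 0.44, adjusted p = 0.153) and THBS1 of -0.20 (-0.39 to -0.01, adjusted p = 0.402), neither past the threshold. All 3 dTAG-S0 libraries lay above all 3 DMSO-S0 libraries in 4 of the 5 genes (PLAU, PLAT, PLAUR and F3), as they did in 8.92% of all tested genes. The median log2 fold change was 0.45 over the 5 genes and 0.00 over all tested genes.

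These calls rested in part on single libraries. The PLAU call was lost on leaving out DMSO-S0 replicate 2 or 3 (log2 0.41 and 0.50, adjusted p = 0.147 and 0.124) or dTAG-S0 replicate 1 or 3 (0.41 and 0.48, adjusted p = 0.108 and 0.0799), and with library sizes from the ERCC total (0.51, adjusted p = 0.0584). The PLAT call was lost without replicate 3 of DMSO-S0 (0.39, adjusted p = 0.124) or of dTAG-S0 (0.38, adjusted p = 0.0773), and the PLAUR call without DMSO-S0 replicate 2 (0.52, adjusted p = 0.0781). Over all alternatives the edgeR or DESeq2 adjusted p ran from 1.63e-05 to 0.147 for PLAU, from 2.00e-05 to 0.124 for PLAT and from 2.03e-08 to 0.0781 for PLAUR. All of these alternatives kept the 3 genes higher in dTAG-S0.

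KAP1 depletion in serum-stimulated cells was read from dTAG-S30 against DMSO-S30. PLAT and F3 were called higher (2 of 5, where 0.596% of all tested genes were called higher) and THBS1 lower (1 of 5, where 0.634% were called lower). PLAT was higher by 0.69 on the log2 scale (95% interval 0.51 to 0.86, edgeR adjusted p = 1.53e-05), in place 13 of all tested genes by p. It was past the threshold in each of the 12 fits that left out 1 library and in each of 9 other settings. THBS1 was lower, with a log2 fold change of -0.46 (-0.62 to -0.29, adjusted p = 0.00169), and it too was past the threshold in all 12 and all 9, with adjusted p up to 0.0355. F3 was higher by 0.36 (0.20 to 0.52, adjusted p = 0.0122).

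The F3 call in serum-stimulated cells was lost on leaving out DMSO-S30 replicate 2 or 3 (0.31 and 0.37, adjusted p = 0.165 and 0.057) or dTAG-S30 replicate 1 (0.31, adjusted p = 0.0601), and with ERCC library sizes (0.38, adjusted p = 0.0539). Over its other alternatives the adjusted p ran from 0.000333 to 0.0421. For PLAUR the log2 fold change was 0.29 (0.09 to 0.49, edgeR adjusted p = 0.2) and for PLAU 0.13 (-0.05 to 0.31, adjusted p = 0.668). PLAUR passed the threshold with no count filter (0.29, adjusted p = 0.00825), without DMSO-S30 replicate 3 (0.43, adjusted p = 0.043) and without dTAG-S30 replicate 2 (0.41, adjusted p = 0.0207), the 2 libraries that made its groups overlap. All 3 dTAG-S30 libraries lay above all 3 DMSO-S30 libraries in PLAT and F3, as they did in 7.68% of all tested genes. Over the 5 genes the median was 0.29, against 0.00 over all tested genes.

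**Figure D3:**
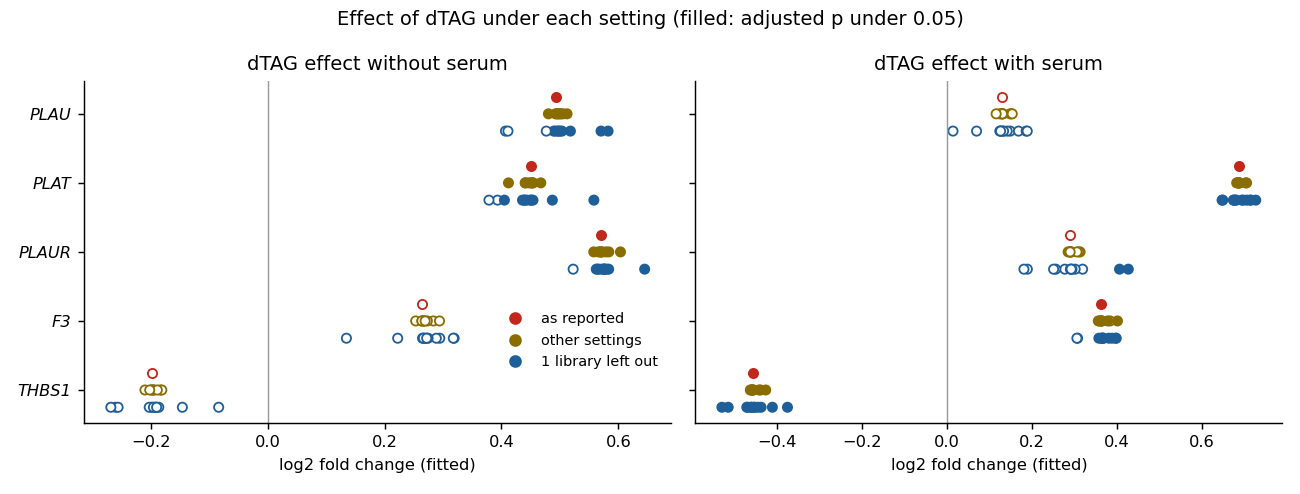
Log2 fold changes of the 5 genes for dTAG relative to DMSO at each serum level, in the reported fit and under each alternative setting, with filled points where the adjusted p is under 0.05. PLAT (0.65 to 0.73) and THBS1 (-0.53 to -0.38) keep their side of 0 and stay filled with serum, whereas PLAU, PLAT and PLAUR without serum have both filled and open points.

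The dTAG-S0 and dTAG-S30 comparisons share no library, but each shares its libraries with the serum comparisons, so the values of a gene are set side by side without a measure of their likeness. For PLAT the dTAG value (log2) was 0.45 without serum and 0.69 with it, called at both serum levels. For THBS1 it was -0.20 and -0.46, for F3 0.26 and 0.36, for PLAUR 0.57 and 0.29, and for PLAU 0.49 and 0.13. A call at 1 serum level only was not shown to differ from the other level, since the interaction above is the test of that difference.

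The other genes of these pathways were read from 6 lists with 71 genes, of which 43 passed the count filter. With serum 10 of the 43 (23.3%) were called higher and 5 (11.6%) lower in DMSO-treated cells, and 9 (20.9%) higher and 2 (4.65%) lower in dTAG-treated cells. Over all tested genes 9.23% were called higher and 16.8% lower in DMSO-treated cells, and 9.07% and 15.5% in dTAG-treated cells. In the reported fit the lists thus had a larger share of higher calls than all genes and a smaller share of lower calls. Neither was tested. The lists were counted in that fit alone, and the balance over all genes moved with the scaling. Higher calls made up 35.5% of all serum calls in DMSO-treated cells there. This became 66.5% when library sizes came from the ERCC total, and 61.4% after TMM scaling. Whether the smaller share of lower calls would hold in those fits was not tested. With dTAG 1 of the 43 was called higher without serum (SDC4, 2.33%, against 0.878% of all tested genes), and 0 were called with serum or for the interaction.

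The activators' inhibitors gave 5 tested genes, of which 2 were higher with serum in DMSO-treated cells and the same 2 in dTAG-treated cells. SERPINE2 (protease nexin-1) rose by 0.19 (log2, edgeR adjusted p = 0.0189) and SERPINB8 by 0.37 (adjusted p = 0.0325) in DMSO-treated cells. SERPINB2, which encodes an inhibitor of urokinase, stayed at or below 0.0528 CPM and was not tested.

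Plasminogen itself (PLG) stayed at or below 0.0457 CPM. Among 11 tested genes for its receptors and cofactors, 4 rose with serum in DMSO-treated cells and the same 4 in dTAG-treated cells. The integrin subunit ITGA5 rose by 0.97 (log2, edgeR adjusted p = 3.96e-10), the integrin subunit ITGB1 by 0.83 (3.89e-11), and S100A10 and ANXA2, which pair on the cell surface as a plasminogen and tPA receptor, by 0.51 (9.00e-06) and 0.28 (0.00279). LRP1, an endocytic receptor that clears activator and inhibitor complexes, was lower with serum in DMSO-treated cells (-0.32, adjusted p = 0.00122), and its value with dTAG without serum was -0.26 (adjusted p = 0.058).

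For coagulation, the factor list, which also holds genes that are not coagulation factors, gave 11 tested genes. In DMSO-treated cells 1 was higher and 1 lower with serum, neither of them a gene for a coagulation factor. MCFD2, which with LMAN1 carries factors V and VIII out of the endoplasmic reticulum, rose by 0.24 (log2, edgeR adjusted p = 0.00547), and TBXAS1, thromboxane synthase, fell by 0.76 on the log2 scale (adjusted p = 0.00195). F7, which encodes the enzyme that tissue factor binds, stayed at or below 0.241 CPM. Of 4 tested coagulation inhibitors TFPI, the inhibitor of the tissue factor and factor VIIa complex, rose by 0.24 (adjusted p = 0.00623), and TFPI2 stayed at or below 0.0979 CPM. Of the 2 tested protease-activated receptors, F2RL1 (PAR2) was at 164, 169 and 149 CPM in DMSO-S0 and at 189, 199 and 190 CPM in DMSO-S30, a rise of 0.28 (adjusted p = 0.00062). The thrombin receptor F2R had a log2 fold change of -0.12 (adjusted p = 0.274).

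Among 10 tested thrombospondins and their receptors, 1 was higher and 3 lower with serum in DMSO-treated cells. SDC4, a cell surface heparan sulfate proteoglycan, rose by 0.78 (log2, edgeR adjusted p = 2.10e-10) and was also higher with dTAG without serum, by 0.32 (adjusted p = 0.00573), with a value of 0.19 with serum (adjusted p = 0.183). THBS4 fell by 1.15 (log2, adjusted p = 4.59e-08), the opposite of THBS1, and TGFB1 and the thrombospondin receptor CD47 fell by 0.26 (adjusted p = 0.0291) and 0.22 (adjusted p = 0.0353). THBS2 stayed at or below 0.0896 CPM. List medians in this comparison ran from -0.11 for the coagulation factor list to 0.08 for the protease-activated receptors, against -0.07 over all tested genes.

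**Figure D4:**
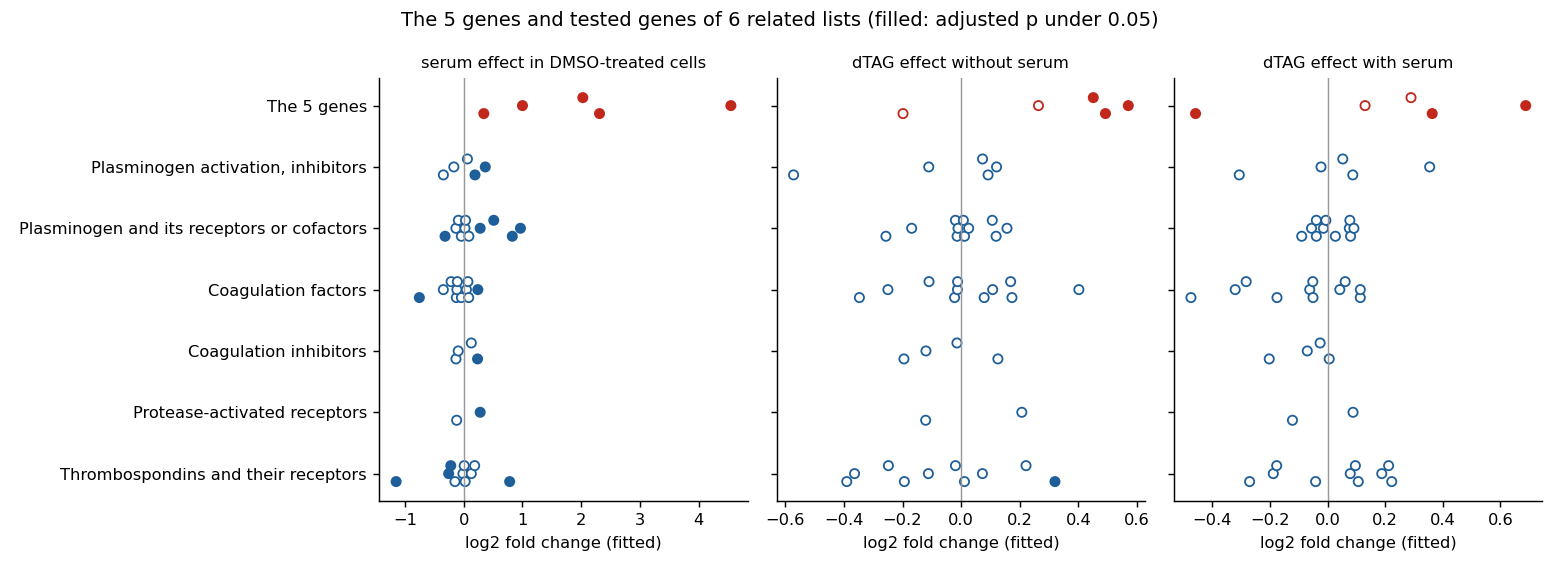
Fitted log2 fold changes of the 43 tested genes of 6 pathway lists and of the 5 genes described here, by list and comparison, with filled points where the edgeR adjusted p is under 0.05. With serum the points of the lists lie between -1.15 (THBS4) and 0.97 (ITGA5), and SDC4 is the only filled point of the lists for dTAG.

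Markers of other cell types were read beside these values, since THBS1 and PLAU are also products of fibroblasts, endothelium and platelets. Of 5 fibroblast markers 1 passed the count filter, COL1A1, and the summed list was at 13.7 to 16.4 CPM in DMSO-S0, 79.2 to 85.7 in DMSO-S30, 12.4 to 15.2 in dTAG-S0 and 66.1 to 78.1 in dTAG-S30. COL1A1 carried this rise (log2 2.48 with serum in DMSO-treated cells, edgeR adjusted p = 2.09e-18), while COL1A2, COL3A1 and LUM stayed at or below 0.316 CPM. Endothelial markers, 2 of 4 tested, summed to 1.88 to 3.96 CPM over all libraries, and leukocyte and platelet markers, 3 of 5 tested, to 6.40 to 10.2 CPM, with PF4 at 0. All libraries came from a single clone of HCT116, so these lists were read as genes expressed in that line. The part of other cell types in the values of the 5 genes was not tested beyond these levels.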

How the data were processed

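The deposited values were raw read counts, not normalised, for protein-coding genes and ERCC transcripts. After trimming, the authors aligned the reads to hg38 with STAR and counted them over whole genes, introns included, with featureCounts (Subread 1.6.3, per the submitters' processing notes). Counting introns adds unspliced RNA, so values of newly transcribed genes hold more of it. Strand and multi-mapping settings are not given in the sources used here.

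There were 19901 genes and 92 spike-in transcripts, of which the 13093 genes that reached 10 counts in 6 or more of the 12 libraries were tested. Counts were scaled by the upper quartile, and a covariate for unwanted variation (1 factor, RUVg algorithm, computed directly) was taken from the spike-ins. How many such factors the study used is not given in the sources used here. All 4 groups were fitted together in edgeR 4.0.16 (R 4.3.3) with the quasi-likelihood test, two-sided, in place of the likelihood ratio test of the study, which was an alternative. Adjusted p-values are Benjamini-Hochberg over all genes tested, and a gene was called at an adjusted p under 0.05. CPM are relative to the scaled library. Libraries held 20537682 to 26278707 counts, each value of the 5 genes rests on 269 or more of them, and intervals cover the spread between libraries but not amplification. The steps were tested on simulated data.

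The 5 genes and the pathway lists were chosen with earlier results of these data known. Named besides the 5 genes were, for each, the 3 tested genes with the nearest pattern over the 4 group means of log2 CPM (prior count 2), up to 6 called genes per list and comparison, and fixed partners of each pathway. Lists were described by counts, with no test, and 1 gene of them is not reported here. Alternatives were TMM scaling, ERCC library sizes, 0 or 2 factors, the likelihood ratio test, DESeq2 1.42.0, no count filter, the 6 compared libraries alone, a replicate block and leaving out each library. Overlapping genes and exons come from GENCODE v44, which may differ from the study's annotation. The sequences are from RefSeq tables, with 4 of the 5 genes used.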

Additional observations from a re-analysis of the deposited data

How the results depend on the processing

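No log2 fold change of the 5 genes changed direction under any setting tried. When 1 library was left out, 4 to 5 of them were called for serum in DMSO-treated cells, 5 to 5 in dTAG-treated cells, 1 to 3 for dTAG without serum, 2 to 4 for dTAG with serum and 0 to 0 for the interaction. The low count of 1 for dTAG without serum came without DMSO-S0 replicate 2, DMSO-S0 replicate 3 or dTAG-S0 replicate 3.

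Counts over all genes moved more. With ERCC library sizes they were 1766 (serum, DMSO), 1646 (serum, dTAG), 76 (dTAG without serum), 66 (dTAG with serum) and 3 (interaction), against 3406, 3212, 171, 161 and 5 as reported. The likelihood ratio test gave 291, 265 and 13 for the last 3 comparisons and no count filter gave 304, 289 and 23. For the interaction, 2 factors gave 9 and DESeq2 gave 10. Leaving out 1 library gave 2433 to 3676, 2135 to 3984, 69 to 286, 95 to 256 and 4 to 9. Of the calls for serum in DMSO-treated cells 35.5% were higher as reported, 61.4% under TMM scaling and 66.5% with ERCC sizes (37.0%, 61.7% and 62.5% in dTAG-treated cells). Of those for dTAG without serum 67.3% were higher as reported, 80.3% with ERCC sizes and 56.6% with no count filter. The cause was not tested. All 5 genes were higher with serum under each of these scalings.

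Replicate numbers were checked for pairing: over 18 pairs of same-numbered libraries the deviations from the group means had correlations of -0.153 to 0.139, with 1 over 0.1, so the numbers were not taken to pair the libraries. A fit with the replicate number as a block called 173 genes for dTAG without serum and 167 with serum. It changed no call of the 5 genes. PLAU was lowest in replicate 2 and PLAUR highest in replicate 3 of every group. Without serum the block moved the edgeR adjusted p for dTAG from 0.0141 to 0.000985 for PLAU and from 0.00775 to 0.00115 for PLAUR. For PLAT it went from 0.00473 to 0.00529. With serum the block moved PLAUR from 0.2 to 0.0701 and F3 from 0.0122 to 0.0143. With 3 libraries a group and dTAG effects under 2-fold, calls near the threshold depended on single libraries. Levels rest on counts over introns and exons together, and a single clone at a single serum time was measured.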

Other observations

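The tested genes with the most similar pattern were found for each of the 5 genes, by the distance between the 4 group means of log2 CPM, each gene centred on its own mean. This is a description over 4 means from 12 shared libraries, with no test. For PLAU the nearest were KLF2 (distance 0.153), KLF6 (0.186) and FILIP1L (0.224), and PLAUR came in place 7 (0.283). FILIP1L was low, with group means of 0.115 to 0.823 CPM. KLF2 and KLF6 encode Krüppel-like transcription factors. KLF6 went from 59.1 to 264 CPM with serum in DMSO-treated cells (log2 2.17, edgeR adjusted p = 1.34e-20). Its log2 fold change with dTAG without serum was 0.23 (adjusted p = 0.0641).

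For PLAUR the nearest were MUC13 (distance 0.204), HBEGF (0.209) and KLF4 (0.229), with PLAU in place 6. MUC13 was low as well, with group means of 0.713 to 4.32 CPM. HBEGF encodes a ligand of the EGF receptor and KLF4 a Krüppel-like factor. KLF4 rose by 1.98 with serum in DMSO-treated cells (log2, edgeR adjusted p = 4.45e-15) and HBEGF by 1.92 (adjusted p = 5.48e-12), and neither was called with dTAG. For F3 the nearest were PDGFB (0.133), ARTN (0.138) and MT1X (0.146), and for PLAT CDK5R2 (0.180), KRT15 (0.182) and MYLK2 (0.183), which were all at or below 5.43 CPM in each group mean. For THBS1 the distances were larger, with EDN1 (0.288), which encodes endothelin-1, DUSP1 (0.368), a phosphatase of MAP kinases, and ENSG00000275993 (0.372). In DMSO-S0 the mean of EDN1 was 0.845 CPM and that of ENSG00000275993 was 0.530 CPM. At such low levels the prior count of 2 also shapes the pattern.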
